A study of Homo sapiens with 2 samples.

Results

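The RAS, RAF and MAPK pathway components described here are 35 genes chosen by name, from receptor adaptors through RAS proteins and their regulators to RAF, MEK, ERK and the kinases below them, with the RAL and RAP branches. Of these, 31 had a probe set with exactly 1 gene symbol among the 22465 genes named on the arrays. The RAS GTPase NRAS, the RAS GTPase-activating proteins RASA1 and DAB2IP and the RAF kinase BRAF were not analysed here. Total RNA came from IGROV1-R10, a human ovarian carcinoma line selected for resistance to cisplatin from the IGROV1 line. The miR-491-5p group was 1 array of cells given a miR-491-5p duplex by transfection, and the control miRNA group was 1 array of cells that received a control duplex. Both duplexes were used at 20 nM, 24 hours after seeding, with the same transfection reagent. The whole experiment rests on a single line and a single array a group, so no difference has an error between cultures and none was tested.

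All values are deposited log2 signals of whole-transcript arrays. Each difference subtracts the control signal from the miR-491-5p signal of the same gene, so a difference of 1 on the log2 scale is 2-fold. The miR-491-5p array spanned signals of 2.53 to 19.22, and the control array 2.58 to 19.18. A gene was kept where the higher of its 2 values reached 5.55, the median of all values, and 14373 genes passed, all 31 measured pathway members among them. All 6 epithelial and ovarian carcinoma markers examined passed, with log2 signals between 11.04 and 15.17 in miR-491-5p cells and between 10.59 and 15.61 in control cells. Among markers of other cell types, 1 of 3 leukocyte, 0 of 3 endothelial and 1 of 3 fibroblast genes passed.

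Growth factor receptors such as EGFR signal to RAS through adaptors that bring the exchange factor SOS to the membrane. SOS loads RAS with GTP, GTPase-activating proteins switch it off again, and GTP-bound RAS recruits RAF kinases, which phosphorylate MEK, which phosphorylates ERK. The pathway drives proliferation and survival in many carcinomas, and much of its regulation acts on proteins rather than on transcript levels. A miRNA lowers messenger RNAs that pair with its seed, bases 2 to 8 from the 5′ end.

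The sequence of the delivered miRNA is shown because its seed defines which transcripts it can pair with. In RefSeq the mature miRNA lies at chr9:20716120-20716141 (GRCh38.p14, plus strand), and capitals mark the seed. Of the mature miRNAs in the RefSeq table, 1 carries this seed, miR-491-5p itself. The matching bases in a target transcript, written as DNA, read TCCCCAC. Transcript sequences were not used here, so sites in the pathway members were not counted. In the hairpin, which spans chr9:20716105-20716188, capitals mark the mature arm.
hsa-miR-491-5p: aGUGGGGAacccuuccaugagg
MIR491 hairpin: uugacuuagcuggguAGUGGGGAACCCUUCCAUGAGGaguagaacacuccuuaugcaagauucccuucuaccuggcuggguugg

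The pathway genes differed little between the arrays, and the few sizeable differences were all toward lower signal with miR-491-5p. Of the 31 members, 4 were at least 1.5-fold lower (SHC1, RRAS, RASAL2 and RPS6KA3) and 0 were at least 1.5-fold higher. That is 12.9% of the members, beside 3.62% of all genes above the filter that were lower by 1.5-fold or more and 0.675% that were higher by as much. No member reached 2-fold, beside 0.758% of all genes that were lower by 2-fold or more and 0.0487% that were higher by as much. In all, 24 members (77.4%) had a difference below 0, as did 64.8% of all genes. The members' median difference was -0.09 against -0.07 for all genes, so the centre of the list lay close to that of the arrays. Measured from the median of all genes, 18 members lay below it and 12 above. In bulk RNA, less transcript per cell and fewer cells carrying it cannot be told apart.

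**Figure D1:**
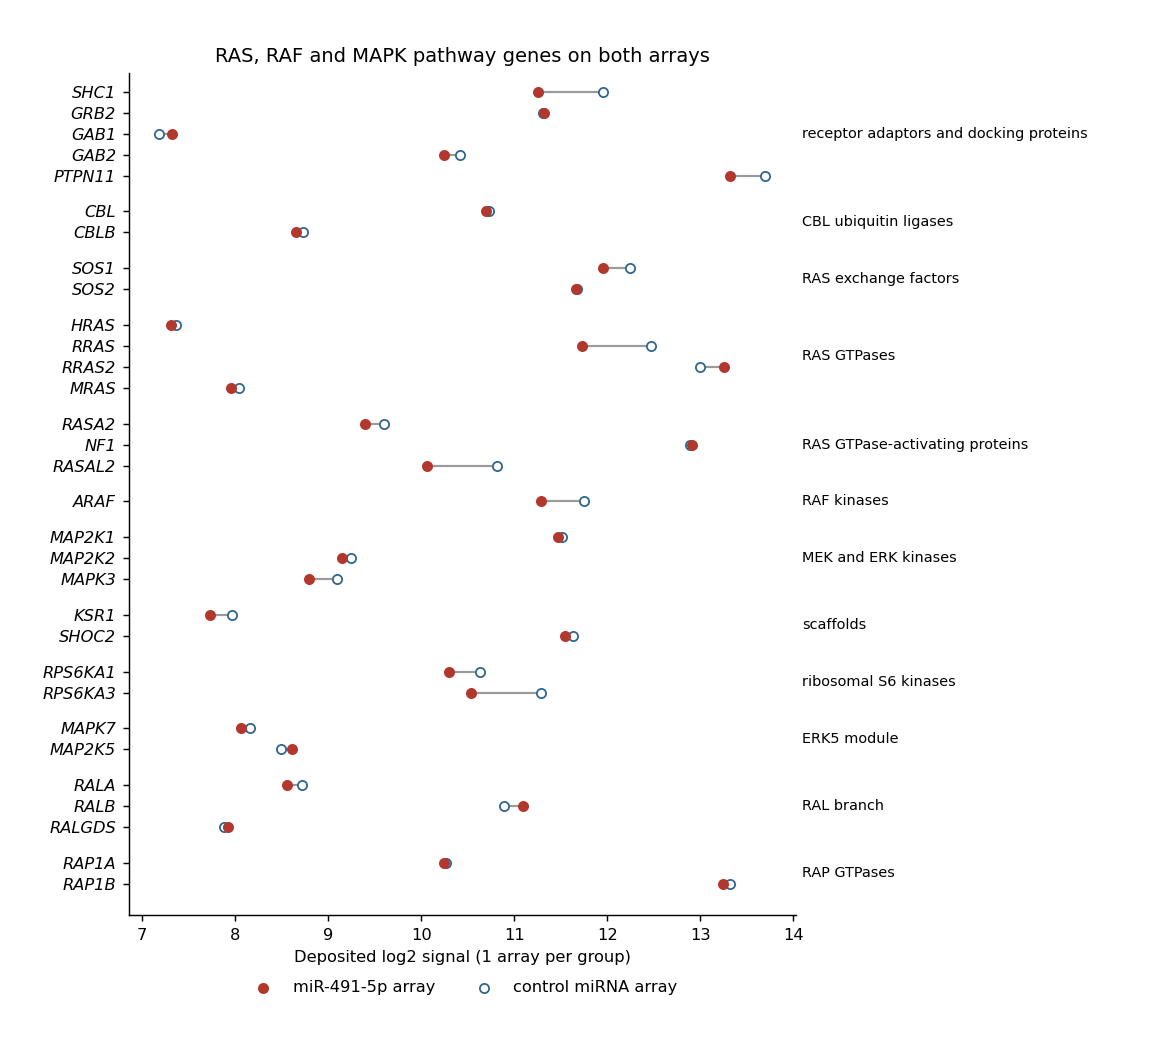
Deposited log2 signal of each of the 31 measured genes (horizontal axis) on the miR-491-5p array (filled red) and the control miRNA array (open blue), by role; signals of different genes are not comparable because each has its own probes. SHC1, RRAS, RASAL2 and RPS6KA3 show the widest gaps, and for most other genes the points nearly touch.

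The adaptors and docking proteins went in both directions. SHC1, which binds activated receptors and recruits GRB2, read 11.26 on the miR-491-5p array and 11.95 on the control array. Its difference of -0.69, measured by probe set TC01006381.hg.1, is 1.61-fold lower, and 2.46% of all genes were at or below it. GRB2, the adaptor that carries SOS to the receptor, read 11.32 on the miR-491-5p array and 11.31 on the control array, a difference of 0.01. The consecutive adaptors SHC1 and GRB2 therefore had unlike values on these arrays.

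The docking proteins GAB1 and GAB2, which gather signalling enzymes beneath receptors, also had unlike signs. GAB1 read 7.32 with miR-491-5p and 7.18 with control (difference 0.14), whereas GAB2 read 10.25 with miR-491-5p and 10.42 with control (difference -0.17). PTPN11 encodes SHP2, a phosphatase that GAB proteins recruit and that promotes RAS activation. It read 13.32 on the miR-491-5p array and 13.70 on the control array (difference -0.38), and 9.81% of all genes were at or below that. Across these 5 genes the median difference was -0.17, and 3 of 5 lay below 0, beside 64.8% of all genes.

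CBL and CBLB, ubiquitin ligases that mark activated receptors for degradation, were nearly equal between the arrays. CBL read 10.70 with miR-491-5p and 10.73 with control, and CBLB read 8.65 with miR-491-5p and 8.73 with control. CBLB's difference of -0.08 was within 0.01 of the median of all genes, and CBL's of -0.03 turned to 0.04 after the differences were centred on that median.

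Among the RAS regulators, both exchange factors lay within the range of the measured GTPase-activating proteins, from -0.76 to 0.02. SOS1 read 11.95 on the miR-491-5p array and 12.24 on the control array (difference -0.29), with 15.8% of all genes at or below it. SOS2, its close relative, read 11.66 with miR-491-5p and 11.68 with control (difference -0.02, or 0.05 after centring). RASAL2, a GTPase-activating protein of the SynGAP group, read 10.06 on the miR-491-5p array and 10.82 on the control array. Its difference of -0.76 (probe set TC01001539.hg.1) is 1.69-fold lower, the lowest of the list together with RPS6KA3, and 1.86% of all genes were at or below it.

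The other measured GTPase-activating proteins did not follow RASAL2. NF1, which encodes neurofibromin, read 12.91 on the miR-491-5p array and 12.89 on the control array (difference 0.02). RASA2 read 9.39 with miR-491-5p and 9.60 with control (difference -0.21), and 24.4% of all genes were at or below that. The median over the 3 measured genes was -0.21, with 2 of 5 in the group not analysed here.

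The RAS GTPases held both the highest value of the list and one of its lowest. RRAS, a RAS relative linked to integrin-mediated adhesion, read 11.73 on the miR-491-5p array and 12.47 on the control array. Its difference of -0.74 (probe set TC19001721.hg.1) is 1.67-fold lower, with 2.04% of all genes at or below it. RRAS2, its closest paralogue, also called TC21, read 13.26 with miR-491-5p and 13.00 with control. That difference of 0.26 is 1.2-fold higher, and 5.71% of all genes were at or above it. The differences of these paralogues were 1.0 apart on the log2 scale, the widest gap among the 8 pairs of close relatives in the list.

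HRAS, a classical RAS gene, read 7.31 on the miR-491-5p array and 7.36 on the control array. Its difference of -0.05 turned to 0.02 after centring. MRAS, which with SHOC2 and protein phosphatase 1 forms a holoenzyme that dephosphorylates RAF, read 7.95 with miR-491-5p and 8.04 with control (difference -0.09). Both lay in the middle of all genes, with 55.9% of genes at or below HRAS and 46.8% at or below MRAS.

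Of the core kinases, ARAF and MAPK3 were modestly lower, and MAP2K1 and MAP2K2 lay close to the median of all genes. ARAF, the only RAF kinase measured among the members, read 11.29 on the miR-491-5p array and 11.75 on the control array. Its difference of -0.46 is 1.38-fold lower, and 6.83% of all genes were at or below it. MAP2K1, which encodes MEK1, read 11.47 with miR-491-5p and 11.51 with control (difference -0.04, or 0.03 after centring). MAP2K2, encoding MEK2, read 9.15 with miR-491-5p and 9.25 with control (difference -0.10). MAPK3, encoding ERK1, read 8.79 on the miR-491-5p array and 9.09 on the control array (difference -0.30), with 14.8% of all genes at or below it. MEK1 and MEK2 transcripts were thus close to the median of all genes, and ERK1 and ARAF below it.

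Both scaffolds lay below the median of all genes (-0.07), SHOC2 only just. KSR1, which holds RAF, MEK and ERK together, read 7.73 on the miR-491-5p array and 7.97 on the control array (difference -0.24, with 20.6% of genes at or below). SHOC2, the leucine-rich repeat scaffold of the RAF phosphatase complex, read 11.55 with miR-491-5p and 11.63 with control (difference -0.08). Their median was -0.16.

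The ribosomal S6 kinases, which ERK phosphorylates directly, had a median of -0.55 over the 2 members, whereas other listed genes of the family went both ways. RPS6KA3, encoding RSK2, read 10.53 on the miR-491-5p array and 11.29 on the control array. Its difference of -0.76 (probe set TC0X000911.hg.1) is 1.69-fold lower, level with RASAL2. RPS6KA1, encoding RSK1, read 10.30 with miR-491-5p and 10.63 with control (difference -0.33), with 12.6% of all genes at or below it. The differences of these paralogues were 0.43 apart. Of the family's listed genes outside the members, RPS6KA2 read 6.16 with miR-491-5p and 6.12 with control (difference 0.04). RPS6KA5 read 7.24 with miR-491-5p and 7.13 with control (difference 0.11), and RPS6KA4 differed by -0.56. RPS6KA2 and RPS6KA5 were named after their values were seen, to show the family's other listed genes. Not every gene of the family was listed.

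In the parallel ERK5 module both differences were small and had unlike signs. MAPK7, encoding ERK5, read 8.06 on the miR-491-5p array and 8.16 on the control array (difference -0.10). MAP2K5, its upstream kinase MEK5, read 8.61 with miR-491-5p and 8.49 with control (difference 0.12), with 15.5% of all genes at or above it.

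In the RAL branch, through which RAS also controls vesicle trafficking, 2 of 3 genes were above 0, beside 4808 of all 14373 genes. RALB read 11.09 on the miR-491-5p array and 10.89 on the control array (difference 0.20), and 8.79% of all genes were at or above it. RALA read 8.56 with miR-491-5p and 8.72 with control (difference -0.16), so the paralogues' differences were 0.36 apart. RALGDS, the exchange factor that links RAS to RAL, read 7.92 with miR-491-5p and 7.88 with control (difference 0.04).

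The RAP GTPases, which regulate integrin adhesion, hardly differed. RAP1A read 10.25 on the miR-491-5p array and 10.27 on the control array, and RAP1B read 13.25 with miR-491-5p and 13.32 with control. Their differences of -0.02 and -0.07 became 0.05 and 0.00 after centring.

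**Figure D2:**
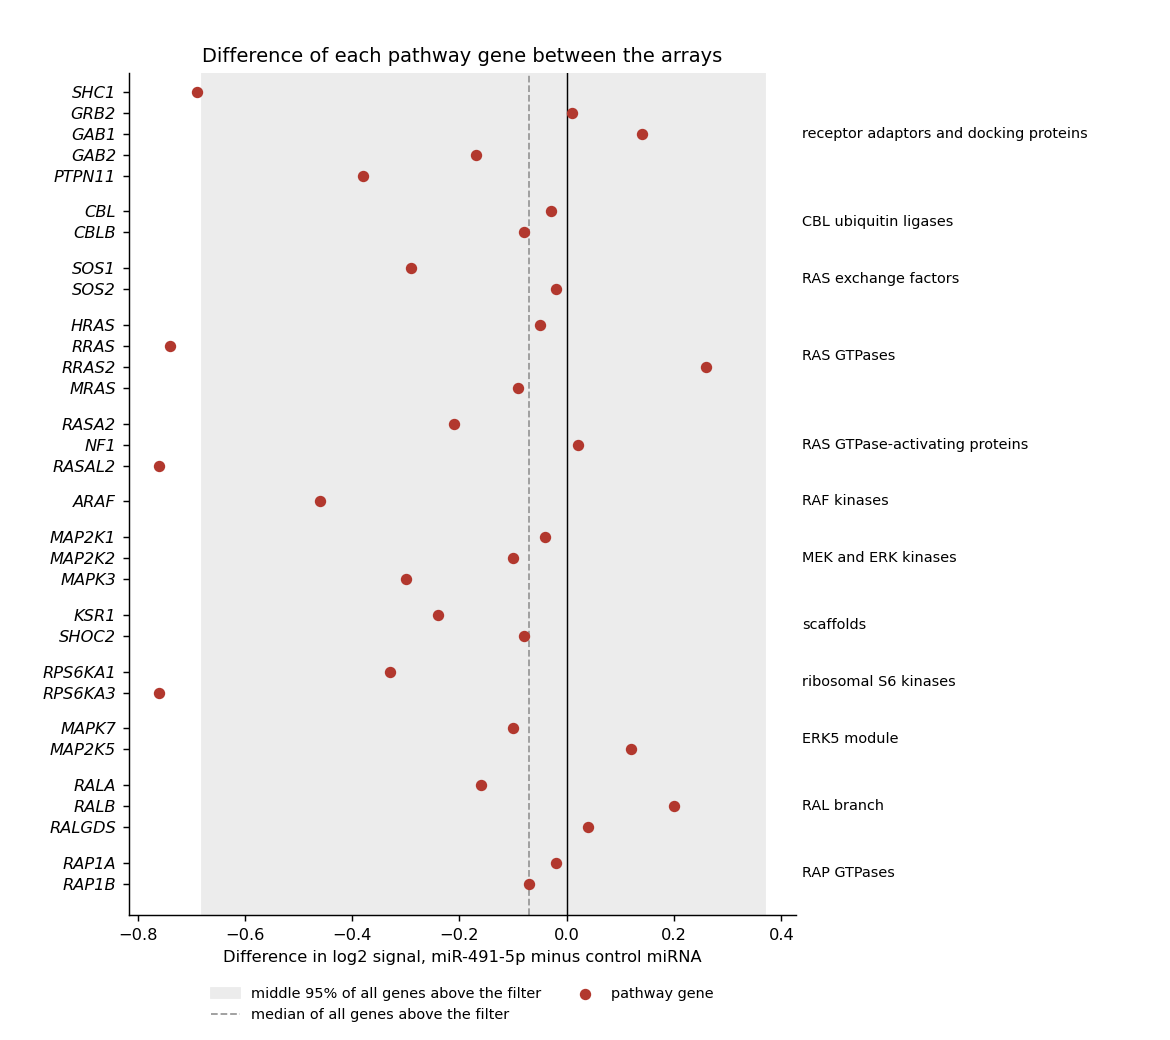
Difference in log2 signal, miR-491-5p minus control miRNA (horizontal axis), of each of the 31 measured genes by role. The grey band is the middle 95% of all genes above the filter (-0.68 to 0.37) and the dashed line their median (-0.07); SHC1, RRAS, RASAL2 and RPS6KA3 lie left of the band and no gene lies right of it.

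By broader class, 8 measured kinases had a median difference of -0.20 and 7 of them were below 0, as were 64.8% of all genes. The 7 further pathway kinases above the filter that are no members had a median of 0.04, with 3 of them below 0. The 5 measured RAS regulators had a median of -0.21, with 4 below 0. The 7 adaptors and CBL ligases had a median of -0.08, with 5 below 0, and the 9 GTPases with RALGDS a median of -0.05, with 6 below 0. The adaptors, the RAS regulators, the GTPases and the kinases each held 1 of the 4 genes past 1.5-fold, and the scaffolds held 0. These medians over few genes carry no error and the classes were not tested against each other.

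The size of differences on these arrays grew with signal, and the 4 lowest pathway genes are all strongly detected. In the dimmest tertile of genes 1.5% were at least 1.5-fold lower, in the middle tertile 3.86% and in the brightest 5.51%. The pathway had 0 members in the dimmest tertile, 12 in the middle and 19 in the brightest. All 4 members past 1.5-fold were among the 19 bright ones (21.1%). The middle 95% of the brightest tertile ran from -0.83 to 0.40, and that of the middle tertile from -0.69 to 0.38. No member lay outside the range of its own tertile. Within the brightest tertile, 3.24% of genes were at or below RASAL2 and RPS6KA3, 3.53% at or below RRAS and 4.13% at or below SHC1, and 6.14% were at or above RRAS2.

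**Figure D3:**
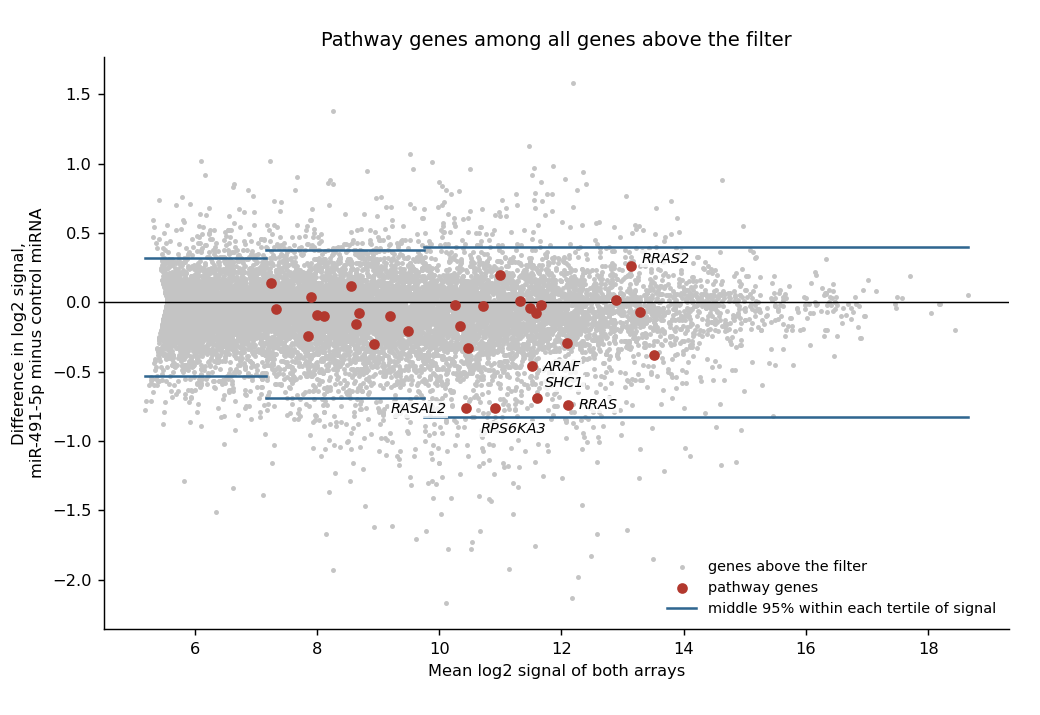
Difference in log2 signal, miR-491-5p minus control miRNA (vertical axis), against the mean log2 signal of both arrays for all 14373 genes above the filter (grey) and the 31 pathway genes (red). Blue lines mark the middle 95% of genes within each tertile of signal; the red points lie inside them, with RASAL2, RPS6KA3, RRAS and SHC1 nearest the lower line.

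EGFR, the receptor upstream of these components, was lower by more than any of them. It read 9.67 on the miR-491-5p array and 11.40 on the control array, a difference of -1.73. The whole range of the pathway members, from -0.76 to 0.26, lay above that value.

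Other genes of the same pathway also had a median near that of all genes. Of 67 listed, 59 were measured and 49 passed the filter. Among these 49, 1 was at least 1.5-fold lower (2.04%, beside 3.62% of all genes), 0 were at least 1.5-fold higher, and the median was -0.10. The lowest was GRB7, an adaptor that binds ERBB receptors, at 8.02 with miR-491-5p and 8.66 with control (difference -0.64, or -0.57 after centring and then short of 1.5-fold). Below 0 were 32 of the 49 (65.3%, beside 64.8% of all genes).

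The next genes of that list came from several steps of the pathway. RPS6KA4, a nuclear kinase activated by ERK and p38, read 7.75 with miR-491-5p and 8.31 with control (difference -0.56). PPP1CC, a catalytic subunit of protein phosphatase 1, the phosphatase of the SHOC2 complex, read 14.00 with miR-491-5p and 14.54 with control (difference -0.54). RIN1, a RAS effector, read 7.34 with miR-491-5p and 7.85 with control (difference -0.51). IRS2, an insulin receptor substrate, read 5.19 with miR-491-5p and 5.75 with control (difference -0.56), and it passed the filter on the control array alone.

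Among further adaptors, GRB14 differed by -0.36 (8.16 with miR-491-5p and 8.52 with control) and CRKL by -0.34 (12.14 with miR-491-5p and 12.48 with control). RGL3, a RAL exchange factor, had the highest difference of that list, 0.36 (8.48 with miR-491-5p and 8.12 with control). By class, the median difference was -0.33 over 9 adaptors (8 below 0, as were 64.8% of all genes) and -0.20 over 3 RAS regulators. It was -0.17 over 4 downstream genes, the RAS effectors RASSF1, RASSF5 and RIN1 and the transcription factor ELK1. It was -0.10 over 5 GTPases, -0.04 over 8 scaffolds and phosphatases, -0.01 over 13 RAP and RAL regulators and effectors and 0.04 over 7 kinases. These classes were not tested against each other.

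**Figure D4:**
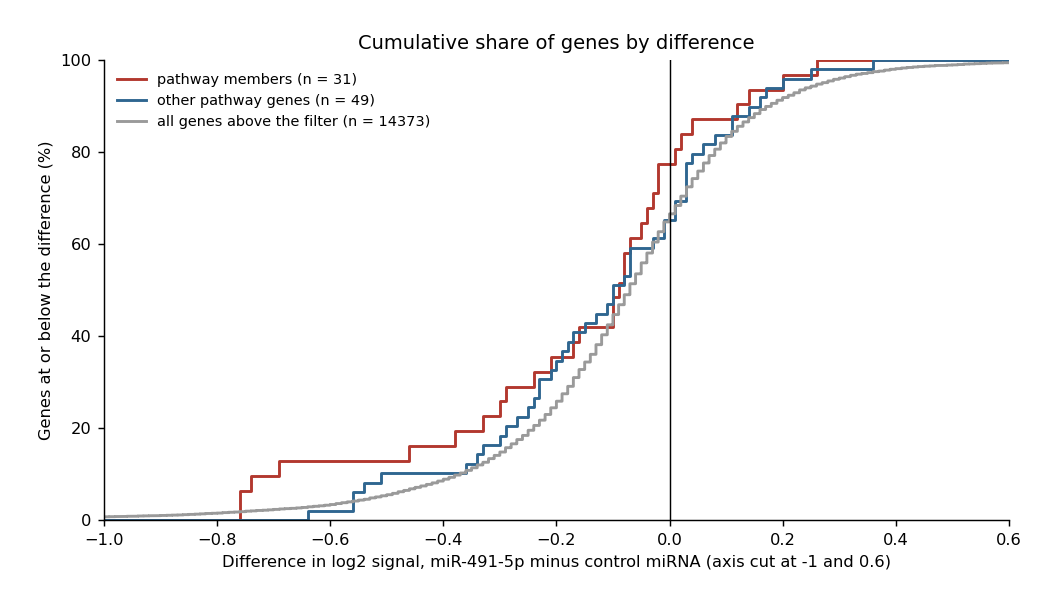
Share of genes (vertical axis, percent) at or below each difference in log2 signal, miR-491-5p minus control miRNA (horizontal axis, drawn from -1 to 0.6), for the 31 pathway members (red), 49 other pathway genes (blue) and all 14373 genes above the filter (grey). The red curve starts with a step of 4 genes between -0.76 and -0.69 and runs near the others around the median.

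The promoters of the lower members are shown so that they can be read beside the motifs of ETS and AP-1 factors, 2 families that ERK signalling activates. RefSeq promoter windows of 300 bases (250 before the gene start and 50 after it, GRCh38.p14) were found for 26 of the 31 measured members, not for RRAS, and the most upstream start was taken for each gene. Both strands were searched for the ETS motif GGAAGT and the AP-1 motif TGANTCA, which do not overlap each other, and capitals mark the matches. The shorter ETS core GGAA was not counted. The SHC1 window is chr1:154974327-154974626 (minus strand), that of RASAL2 chr1:178093854-178094153 (plus strand) and that of RPS6KA3 chrX:20267041-20267340 (minus strand).
SHC1: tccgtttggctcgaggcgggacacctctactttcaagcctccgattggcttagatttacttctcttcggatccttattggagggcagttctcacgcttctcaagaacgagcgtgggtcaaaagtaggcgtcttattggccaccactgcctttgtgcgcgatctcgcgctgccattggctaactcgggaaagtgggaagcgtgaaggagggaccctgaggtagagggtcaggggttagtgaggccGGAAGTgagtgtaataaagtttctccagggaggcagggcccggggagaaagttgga
RASAL2: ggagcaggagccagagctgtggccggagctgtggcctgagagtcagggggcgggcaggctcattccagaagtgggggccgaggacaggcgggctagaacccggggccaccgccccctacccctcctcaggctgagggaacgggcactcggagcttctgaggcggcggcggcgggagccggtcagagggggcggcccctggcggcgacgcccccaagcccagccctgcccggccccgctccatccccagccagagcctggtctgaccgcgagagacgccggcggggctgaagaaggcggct
RPS6KA3: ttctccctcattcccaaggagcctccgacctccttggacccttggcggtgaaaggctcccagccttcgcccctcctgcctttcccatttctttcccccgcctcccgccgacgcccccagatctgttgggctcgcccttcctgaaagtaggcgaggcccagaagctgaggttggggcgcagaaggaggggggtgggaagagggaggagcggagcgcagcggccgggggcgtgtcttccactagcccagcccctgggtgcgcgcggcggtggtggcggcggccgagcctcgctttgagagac

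The SHC1 window holds GGAAGT 1 time, and the RASAL2 and RPS6KA3 windows hold it 0 times. RefSeq lists 2 starts for each of these genes, and the window of the other start holds GGAAGT in RPS6KA3 and the AP-1 motif in SHC1. Over the 26 members with a window, 6 held GGAAGT (23.1%), the same share as over the windows of all 27305 genes (23.1%). At the most upstream start, the AP-1 motif was in 0 of the 26, beside 7.72% of all windows. The members' windows had a median G and C content of 72.3%, against 58.3% over all genes. Across the 26 genes, which share both arrays, the G and C content and the difference correlated at r = -0.03 (Pearson) and rho = -0.09 (Spearman), given as a description. These counts cover 1 start per gene and say nothing of binding.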

How the data were processed

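The authors deposited 1 column of log2 signals for each array, with a row for each transcript cluster, or probe set. RMA made these values, per the submitters' processing notes, and the log base was taken from that method. Not given in the sources used here: its version, background correction and any later scaling. Some values lie above the usual range of log2 scanner intensities, and folds hold on the deposited scale only. Scanner intensities were not used here, so signal over background is unknown, and the number of arrays limits the precision.

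Of 67528 probe sets, 23781 carried 1 symbol in GEO's platform annotation, 1543 several, and 42204 were unnamed here. Each gene took its probe set with the highest mean. All 31 members had a single such probe set, and all matched RefSeq by Entrez ID and symbol. Counts at 1.5-fold (0.585 on the log2 scale) and 2-fold describe 2 arrays and are not tests. All 35 members were to be named, with the 8 largest differences among other pathway genes above the filter, EGFR, and the marker lists by count. Members and lists were chosen with earlier results of these data known.

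The alternatives tried were centring on the median, a loess curve on signal (span 0.3), averaging the probe sets of a gene, no filter, a filter on both arrays and a 3-fold threshold. The counting was tested on simulated data at 2-fold only, so that test does not cover the counts at 1.5-fold. Tools were statsmodels 0.14.6, pandas 2.3.3, numpy 2.4.6 and matplotlib 3.10.9 under Python 3.11.15. Seed matches in transcripts and protein comparisons, both planned, were not run, because those sequences were not used here.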

Additional observations from a re-analysis of the deposited data

How the results depend on the processing

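Leaving out replicates does not apply to single arrays. No paired analysis was possible because neither group has a second array. Of 207 values recomputed under the alternatives, 203 stayed within the set margin, 4 moved and 0 reversed. A reversal was counted only for members past 1.5-fold, so sign changes of smaller differences are not counted there. The margin was a factor of 1.5 for counts and, for differences and medians, 0.193, a robust SD of the differences over all genes, since no spread between replicates exists. The count of members at least 1.5-fold lower was 4 under centring, loess, mean probe sets and both filters, and 0 at 3-fold. The count of other pathway genes at least 1.5-fold lower was 0 after centring, 0 after loess and 0 at 3-fold, against 1 as deposited. Members' differences shifted upward by 0.07 under centring and by 0.06 to 0.079 under loess. The same 5 genes (CBL, SOS2, HRAS, MAP2K1 and RAP1A, none beyond 0.05 in size) changed sign under both. After centring 18 of 31 members were below 0, with RAP1B at 0.00, and after loess 19 of 31. Mean probe sets and the filters changed no member's value, because each has 1 probe set and passes on both arrays. Under those settings the members' results were bound to stay the same, so the total of 203 overstates how much was put to a test. The counts of seed matches with 7 or 6 bases were not run.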
